A study of Mus musculus with 9 samples.

Results

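The genes examined here encode 5 proteins of the large subunit of the cytosolic ribosome, namely Rplp1, Rpl17, Rpl22l1, Rpl30 and Rpl39. They are every row named as a large subunit protein, pseudogenes left out, among the 489 distinct genes of the deposited kidney tables. RNA was sequenced from the kidneys of 9 male ICR mice, an outbred stock. The young group held 3 untreated mice of 2 months, and the old group held 3 untreated mice of 20 months. The 3HB group held 3 mice of 20 months that had received the ketone body 3-hydroxybutyrate, with its sodium salt at 1 g/L of drinking water since month 11. The tables list only genes that the authors called as changed, each with a normalized value in every mouse. The table for 3HB against old holds 113 genes, and that for age holds 389. All 5 genes came from the table for 3HB against old and 0 from the age table. They had therefore been listed for a difference between the same old and 3HB mice that are compared here.

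Ribosomes translate mRNA into protein. The large subunit joins amino acids and carries the tunnel through which the new chain leaves, and it binds elongation factors through a flexible stalk. Ribosomal proteins are made in matched amounts in nearly every cell, and many of their mRNAs begin with a short run of pyrimidines, the terminal oligopyrimidine tract, through which their translation responds to growth signals. Rplp1 is a protein of the stalk, Rpl17 and Rpl39 lie at the exit tunnel, and Rpl30 is a core protein near the interface between the subunits. Rpl22l1 is a paralog of Rpl22 that can take its place in the ribosome and also binds other RNA.

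The tabulated set of RefSeq sequences around the start of transcription (GRCm38.p6) held 2 of the genes, Rpl22l1 and Rpl39. Rplp1, Rpl17 and Rpl30 had no entry in this set, which does not say that RefSeq lacks them. The lines below show 30 bases of each, because both hold a pyrimidine run near the annotated start, at the start in Rpl22l1 and further downstream in Rpl39. Capitals mark the longest unbroken run of C and T within 50 bases of the annotated start.
Rpl22l1 (chr3:28805499-28805528, plus strand): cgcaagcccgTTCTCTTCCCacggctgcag
Rpl39 (chrX:37085173-37085202, minus strand): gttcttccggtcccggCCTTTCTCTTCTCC
The run of Rpl22l1 is 10 bases long and begins at base 2 of the annotated transcript. That of Rpl39 is 14 bases long, begins at base 37, so that it does not begin the annotated transcript, and ends with the last base of the tabulated sequence. A run of at least 10 pyrimidines on the coding strand occurred in 18.1% of all 32851 tabulated windows and in 68.8% of 48 windows of large subunit genes. On the opposite strand it occurred in 19.0% of all windows and in 16.7% of those of large subunit genes. Both of these genes also hold the letters TATAAA before the start, beginning 28 bases upstream in Rpl22l1 and 96 bases upstream in Rpl39. On either strand these letters were in 13.6% of all windows and in 10.4% of those of large subunit genes. The run length was chosen with these sequences in view, and such matches describe letters in a window and not bound sites.

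Transcripts of all 5 genes are short. In GENCODE mouse release 21 (GRCm38, the build named in the submitters' processing notes) each is protein coding. Rplp1 (ENSMUSG00000007892) lies at chr9:61913284-61914542 on the minus strand and encodes 114 amino acids. Rpl30 (ENSMUSG00000058600) lies at chr15:34440505-34443640 on the minus strand and encodes 115. Rpl22l1 (ENSMUSG00000039221) lies at chr3:28805436-28807424 on the plus strand and encodes 122. Rpl39 (ENSMUSG00000079641) lies at chrX:37082520-37085402 on the minus strand and encodes 51, the fewest of these genes. Rpl17 (ENSMUSG00000062328) lies on chromosome 18 and encodes 184, the most of them. The deposited annotation placed all 5 in the KEGG ribosome pathway, and the single GO term that they shared was structural constituent of ribosome. Their Pfam domains differ from gene to gene, so the genes are related by function and not by sequence family.

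The values are normalized read abundances with 2 decimals, and whether they are TPM or FPKM is not given in the sources used here. Both units divide by transcript length, so levels of different genes are set side by side below on that scale only. The tables give no read totals, so depth and counting error are unknown and precision rests on 3 mice a group. The labels name kidney as the tissue, as do the results, figure legends and data statement of the study, while its methods name muscle. Of 11 kidney markers only Lrp2 and Keg1 were listed. Of 5 skeletal muscle markers 0 were, which says nothing of their level, since the tables hold only called genes. Keg1, a gene expressed in kidney, was at 1076 to 1637 for young mice, 704 to 962 for old mice and 858 to 1297 for 3HB mice. It was lower in old than in young mice without overlap (log2 difference -0.69), and the old and 3HB mice overlapped (0.35). Lrp2, the endocytic receptor of the proximal tubule, was at 68.6 to 116.6 in young, 87.9 to 105.3 in old and 143 to 154.5 in 3HB mice, and so was higher with 3HB without overlap. Of 6 leukocyte markers, Cd79a, Jchain and Lyz2 were listed, all 3 higher in old than in young mice without overlap, and their old and 3HB values overlapped. The part of cell composition in the values below was not tested. In whole kidney, fewer cells of a type and less RNA per cell cannot be told apart.

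The 5 genes differed widely in level and held nearly the same order in every mouse. Rplp1 had the highest values, with the rank 4 among the 489 distinct genes by mean value over the 9 mice, followed by Rpl17 at rank 11. Rpl30 ranked 20, Rpl39 23 and Rpl22l1 36. Rplp1 was above Rpl17 in 9 of 9 mice, by 2.47 to 3.56 times, and Rpl17 was above Rpl30 in 9 of 9. Rpl39 was above Rpl22l1 in 9 of 9 mice, by 1.67 to 2.53 times. Rpl30 and Rpl39 were neighbours without a fixed order, since Rpl30 was the higher in 6 of 9 mice. The mean of Rpl30 over Rpl39 was 0.847 for young, 1.25 for old and 1.36 for 3HB mice.

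The first comparison asked how 3HB given in late life left these genes in the kidney of old mice. All 5 were lower in 3HB than in old mice, with changes in the mean of -31.0% (Rpl22l1) to -17.9% (Rplp1), and the old and 3HB mice did not overlap in any of the 5. For Rpl17 this held only without its pseudogene Rpl17-ps5, since the groups overlapped once the values of both loci were added. The background is high, since 89.4% of the 113 genes in the same table showed no overlap, 61.9% were lower and 51.3% were both, so neither the direction nor the separation sets the 5 genes apart from the rest of their table. Differences are given as the mean of log2(value + 1) in 3HB mice minus that in old mice, with its standard error (SE). The median over the 5 genes was -0.42, beside -0.42 over all 113 genes. Each of the 5 genes gave p = 0.1 in a two-sided exact permutation test, the smallest value that groups of 3 mice allow.

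**Figure D1:**
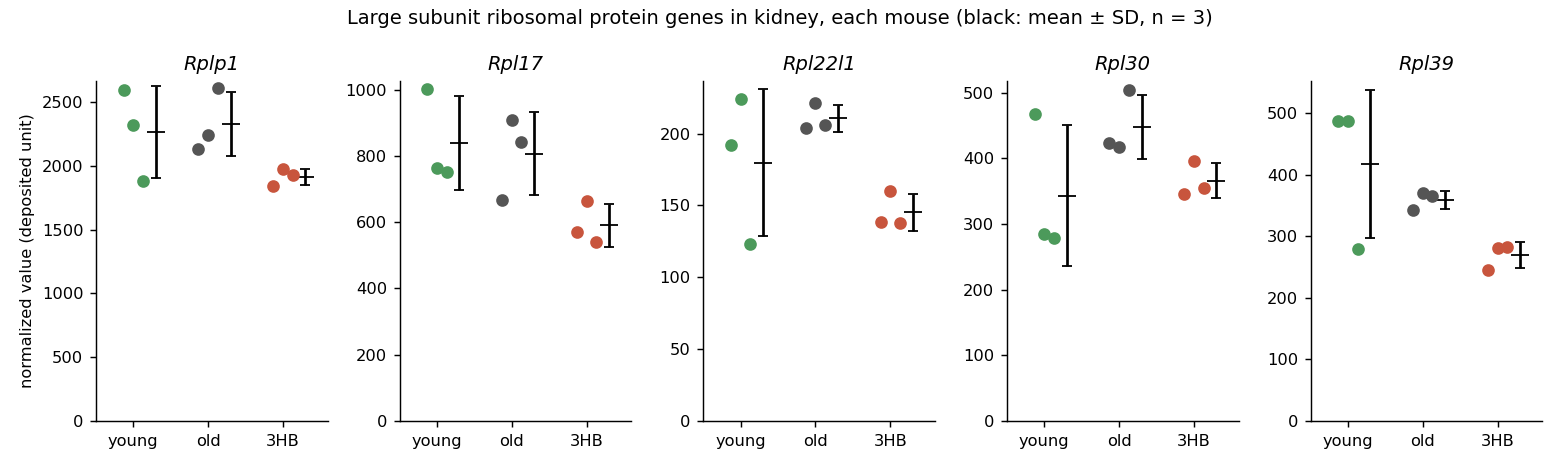
Normalized value (vertical axis from 0, deposited unit) of each of the 5 genes in every young, old and 3HB mouse, 1 point a mouse, with the mean ± SD (n = 3) in black beside the points. The 3HB points lie below all old points in each panel. The young points overlap the old points in each panel and the 3HB points in all but Rpl17, where they lie above them.

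Rplp1, the stalk protein, had the smallest difference of the 5. It was at 2129, 2245 and 2612 in the old mice and at 1843, 1972 and 1924 in the 3HB mice. The 3HB mice were tightly grouped (1913 ± 65.5, SD, n = 3) under a broader old group (2329 ± 252). The log2 difference was -0.28 (SE 0.093), a change of -17.9% in the mean. Between the lowest old and the highest 3HB mouse lay a gap of 6.74% of the old mean.

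At the exit tunnel, Rpl39 was at 343, 369.9 and 366 in the old mice and at 246, 281 and 282 in the 3HB mice. Both groups were narrow, at 359.8 ± 14.6 and 269.7 ± 20.5, and the gap between them was 61 units. The log2 difference was -0.42 (SE 0.073), a change of -25.0%. Rpl17 was at 668, 910.0 and 844 in the old mice and at 569.7, 663 and 540.1 in the 3HB mice. Its log2 difference was -0.44 (SE 0.16), a change of -26.8%, but old mouse 1 and 3HB mouse 2 stood only 5.31 units apart, which is 0.66% of the old mean. These 2 mice made the gap narrow, and without old mouse 1 or 3HB mouse 2 the groups were further apart, at -0.57 and -0.53. With Rpl17-ps5 added, the difference was -0.20 with overlap (p = 0.2 in the two-sided exact permutation test).

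Rpl30, the core protein, was at 423, 418 and 505 in the old mice and at 346, 397 and 356 in the 3HB mice. The log2 difference was -0.29 (SE 0.11), a change of -18.3%, with a gap of 4.62% of the old mean. Rpl22l1, the paralog, had the largest difference of the 5. It was at 204, 221 and 206 in the old mice and at 138, 160.0 and 138 in the 3HB mice. The log2 difference was -0.53 (SE 0.080), a change of -31.0%, and the gap was 21.0% of the old mean, the widest of these genes. Within the table these are moderate changes. Of the 70 genes that were lower with 3HB the median was -0.56, and in the order of all 113 genes from the most negative Rpl22l1 stood at place 40 and Rplp1 at place 68.

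**Figure D2:**
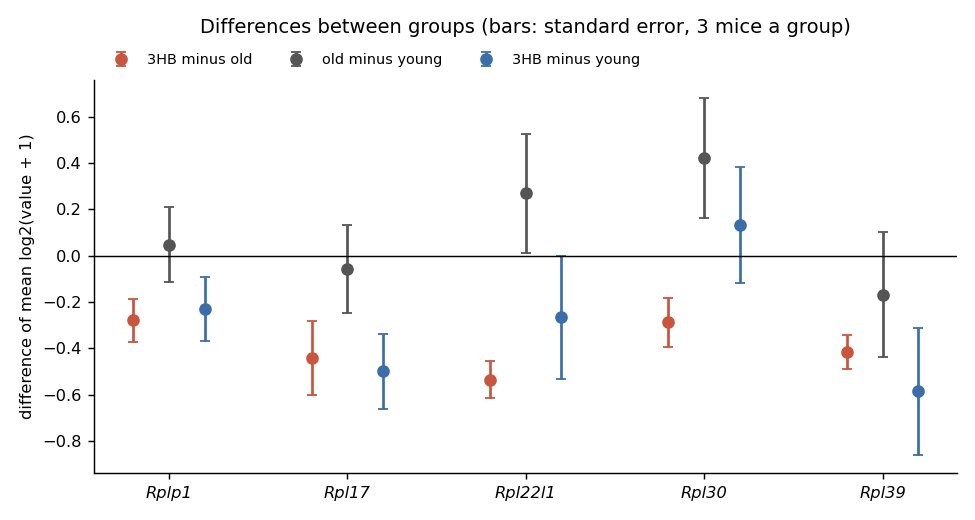
Difference of the mean log2(value + 1) between groups (vertical axis) for each gene, with bars for the standard error, 3 mice a group. Points for 3HB minus old lie between -0.53 and -0.28, whereas those for old minus young lie on both sides of 0.

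Since the groups were already separate, leaving out a mouse could change only the size of these differences, and the median then lay between -0.45 and -0.35. The values were also divided in each mouse by the median of 216 listed genes that are not ribosomal. These genes had themselves been called as changed between groups, so they are no neutral scale. On it the median of the 5 genes was -0.53, and all 5 were lower without overlap. The divisor is the same for every gene of a mouse, and the share of the 113 genes on this scale was not computed.

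The second comparison asked how the same genes stood in old against young kidney. No gene of the 5 separated the groups, where 19.5% of the 113 genes did, 1.77% with lower and the rest with higher values in old mice. The mean was lower in 2 of the 5 genes, against 22.1% of the 113. Rpl30 and Rpl22l1 had the larger positive differences, and Rpl39 and Rpl17 had negative values. Rpl30 was at 467, 284 and 278 in the young mice, so that young mouse 1 stood among the old mice and the others far below, and the log2 difference of old over young was 0.42 (SE 0.26, two-sided exact permutation test, p = 0.3). Rpl22l1 was at 192, 224 and 123.4 in the young mice, with a log2 difference of 0.27 (SE 0.26, two-sided exact permutation test, p = 0.5), and all 3 old mice lay within the young range. Rpl39 was at 486.9, 487 and 279 in the young mice, with a log2 difference of -0.17 (SE 0.27, two-sided exact permutation test, p = 0.4), and again the old mice lay within the young range. Rplp1 was at 2593, 2322 and 1879 in the young mice. Rpl17 was at 1003, 765 and 751 in them. In both genes young mouse 1 was the highest and young mouse 3 the lowest of the young group, and 2 of the 3 old mice lay between them. The differences of Rplp1 and Rpl17 were 0.047 (SE 0.16) and -0.056 (SE 0.19), each with p = 0.9 in the two-sided exact permutation test, and both turned sign with the median of the mice in place of the mean. Over the 5 genes the median was 0.047, beside 0.25 over the 113 genes. The counts moved with single mice, since 1 gene in place of 0 showed no overlap when a young mouse was left out, namely Rpl30 (higher in old mice, 0.67) without young mouse 1, Rpl22l1 (higher, 0.45) without young mouse 2 and Rpl39 (lower, -0.44) without young mouse 3, and 1 gene in place of 2 was lower in old mice without young mouse 1 or old mouse 1, and 3 were lower without young mouse 3 or old mouse 3. No share of the 113 genes was computed beside these counts, and fewer mice make separation easier for any gene. Rpl22l1 was at 0.020 without young mouse 3, and Rpl39 was at -0.036 and -0.035 without young mouse 1 or 2. On the scale of the other listed genes, all 5 were lower in old mice. That scale rests in part on genes called for age. Of all genes called for age 271 of 389 were higher in old mice, and the number among those behind the scale was not counted. No share of the 113 genes was computed on it.

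The remaining comparison set 3HB against young mice. The mean was lower with 3HB in 4 of the 5 genes, against 39.8% of the 113, and higher in Rpl30. All 5 genes had been listed for a difference from old mice and were lower in these same 3HB mice. Low values against young mice are therefore partly built in. The 113 genes include 43 that were higher with 3HB than in old mice, so their shares and median are not a like background. Only Rpl17 showed no overlap, where 38.1% of the 113 genes did (8.85% with lower values), and its log2 difference was -0.50 (SE 0.16, two-sided exact permutation test, p = 0.1). With Rpl17-ps5 added it was -0.065 with overlap, which left 0 of the 5 genes separate. Rpl39 had the most negative value, -0.59 (SE 0.28, two-sided exact permutation test, p = 0.3), since 1 of the 3HB mice lay below every young mouse and the others near young mouse 3. The differences were -0.27 (SE 0.27) for Rpl22l1, -0.23 (SE 0.14) for Rplp1 and 0.13 (SE 0.25) for Rpl30, with p = 0.4, 0.3 and 0.6 in the two-sided exact permutation test. Over the 5 genes the median was -0.27, beside 0.18 over the 113 genes, and without young mouse 3 it was -0.52. The count depended on the young mice. The share of the 113 genes was not computed with a mouse left out, and fewer mice make separation easier for any gene. Without young mouse 3, all but Rpl30 were lower with 3HB without overlap (4 of 5 genes). Without young mouse 1, 2 genes showed no overlap and in opposite directions, Rpl17 lower at -0.36 and Rpl30 higher at 0.38. The values moved as well, from -0.52 to -0.088 in Rpl22l1 without young mouse 3 or 2 and from -0.36 to -0.13 in Rplp1 without young mouse 3 or 1. Rpl30 lay at 0.0040 without young mouse 3 and at 0.020 without young mouse 2. On the scale of the other listed genes all 5, Rpl30 included, were lower in 3HB than in young mice without overlap. The divisor was 0.69 to 0.89 in young and 1.14 to 1.30 in 3HB mice, so it lowered every gene in 3HB relative to young mice. The share of the 113 genes on this scale was not computed, so the count does not set the 5 genes apart. The comparison of 3HB with young mice shares 3HB mice with the first and young mice with the second, and the first and second share the old mice.

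The young mice were spread in different ways from gene to gene. In Rpl17 and Rpl30 young mouse 1 was well above the others, whereas in Rpl22l1 and Rpl39 young mouse 3 was well below them. Young mouse 3 had 1 of the 2 lowest of the 9 values in 4 of the 5 genes and the lowest value of all in Rpl22l1 and Rpl30. The coefficient of variation ran from 15.9 to 31.3% in young, from 4.05 to 15.5% in old and from 3.42 to 10.8% in 3HB mice, and in each gene it was largest in the young group. No highest value of the 9 belonged to a 3HB mouse, and the 5 highest were divided between young mouse 1 (Rpl17), young mouse 2 (Rpl22l1 and Rpl39) and old mouse 3 (Rplp1 and Rpl30).

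**Figure D3:**
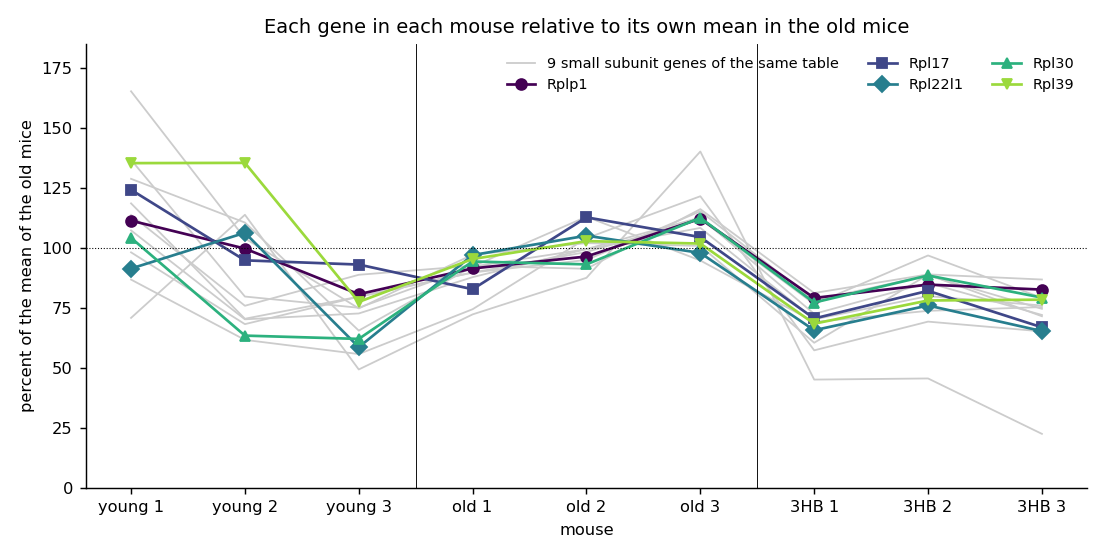
Value of each of the 5 genes in each mouse as percent of the gene's mean in the old mice (vertical axis), with the 9 small subunit genes of the same table in grey; lines join the values of 1 gene and imply no order of mice. The 3HB mice lie below 100 percent in all 5 genes, and young mouse 3 lies below it as well.

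The genes varied together among mice. Over the 9 mice the Pearson correlation of log2 values ranged from 0.24 to 0.86 over the 10 pairs of genes and Spearman's rho from 0.40 to 0.87. It was lowest between Rpl30 and Rpl39 and highest between Rplp1 and Rpl39. After each group's mean had been subtracted, the range was 0.31 to 0.93, with Rpl22l1 and Rpl39 the closest pair. Values of one mouse come from the same library, so these correlations are descriptions only.

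Among the 235 other listed genes with a value of at least 1 in every mouse, those whose profile over the 9 mice was most like the mean of the 5 genes were Rps13 (r = 0.92), Azin2 (r = 0.92), Gm10275 (r = 0.91), Fbxo6 (r = 0.90) and Rps20 (r = 0.90). Rps13 and Rps20 encode small subunit proteins, and Gm10275 is a pseudogene annotated from the large subunit protein L12. Azin2 encodes an antizyme inhibitor of polyamine metabolism, and Fbxo6 encodes an F-box protein that recognises glycoproteins. Of the 20 most similar genes 7 were ribosomal protein genes or their copies, against 18 of the 235 compared. All 20 came from the table for 3HB against old, whose genes were listed for the difference that also shapes the profile of the 5 genes, so the counts are a description only. Rps13 was at 516, 443 and 263 in young, 369.8, 453 and 379.8 in old and 277, 296 and 302 in 3HB mice, with young mouse 3 again the lowest.

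The small subunit genes of the same table differed by a similar amount. All 9 of them were lower with 3HB, 8 without overlap, and their median log2 difference was -0.41. The median of the 5 large subunit genes differed from it by -0.010. Their spread was wider, from -1.41 for Rps27rt, a retrogene, to -0.22 for Rps19, against -0.53 to -0.28 in the large subunit genes. Rps4l, a small subunit gene of the age table, was at 3.30 to 8.47 in 3HB mice and overlapped with old mice at 4.53 to 5.87. The ratio of the geometric mean of the 5 large subunit genes to that of the 9 small subunit genes was 1.53 ± 0.132 for young, 1.43 ± 0.0901 for old and 1.54 ± 0.0614 for 3HB mice (SD, n = 3 each), and the old and 3HB mice overlapped.

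The remaining translation genes were nearly absent from the tables. Of 54 symbols for large subunit proteins, only these 5 were listed. Of 23 genes for ribosome assembly, 78 for the mitochondrial ribosome and 17 for signal recognition and the translocon, which docks at the exit tunnel, 0 were listed in either table. Of 33 genes for translation factors and related mRNAs only Tpt1 was listed. It encodes a growth-related protein whose mRNA also begins with a pyrimidine tract, and it was at 2790, 2578 and 2905 in old and 1955, 2315 and 2127 in 3HB mice, a log2 difference of -0.37 (SE 0.087) without overlap. A gene that is not listed was not called by the authors, and its values were not analysed here, so these counts do not say that it was unchanged.

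Processed pseudogenes are copies of an mRNA pasted back into the genome, and ribosomal protein genes have many. A search of all GENCODE transcripts found 48 other genes with at least 95% identity over at least 80% of the coding sequence of one of the 5 genes, 47 of them pseudogenes. Rpl17 had 22 such copies, Rpl30 12, Rpl39 9, Rplp1 3 and Rpl22l1 2. Reads can be split among such copies, so the level of a single locus is uncertain. Only copies of Rpl17 were among the listed genes, and these were Rpl17-ps5 (99.6% identity) and Gm46209 (98.7% identity, named here after its values had been seen), both from the age table.

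Rpl17-ps5 was present in some mice and nearly absent in others. It was listed at 0, 1.44 and 1.30 in the young mice, at 161, 1.22 and 173 in the old mice and at 127, 147 and 354 in the 3HB mice. Gm46209 had the same pattern, listed at 0 in all young mice, at 10.3, 0.21 and 6.48 in the old mice and at 4.87, 6.55 and 10.6 in the 3HB mice. Old mouse 2, with nearly none of either copy, had the highest Rpl17 value of the old group. The 3HB mouse with the most Rpl17-ps5 had the lowest Rpl17 value of all 9 mice. Other mice did not follow this order. Old mouse 3 had slightly more of the copy than old mouse 1 and also more Rpl17, and its Rpl17 value was above those of young mice 2 and 3, which had almost no copy. 3HB mouse 2 likewise had more of both than 3HB mouse 1. The copy made up 39.6% of the sum of both loci in 3HB mouse 3, 19.4% in old mouse 1, 17.0% in old mouse 3, 0.134% in old mouse 2, and 18.2 to 18.3% in 3HB mice 1 and 2.

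**Figure D4:**
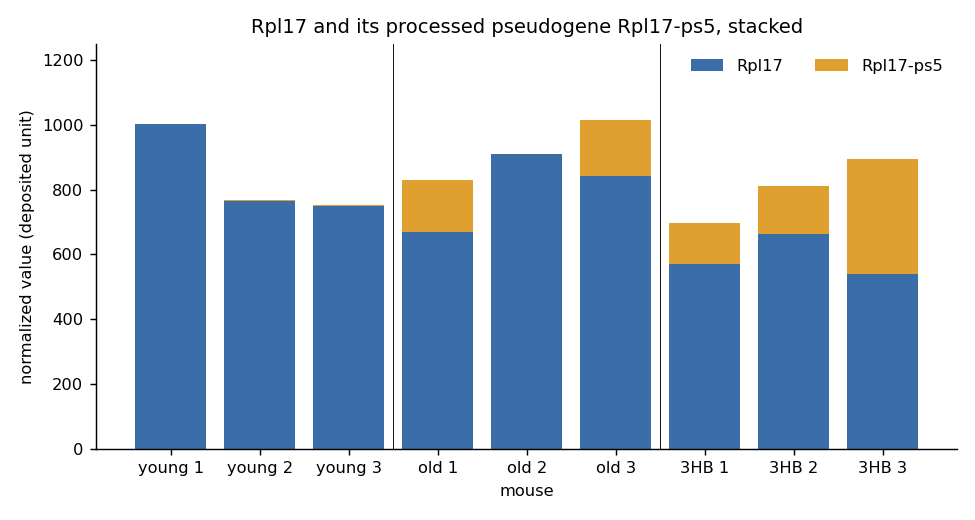
Stacked normalized values (vertical axis from 0, deposited unit) of Rpl17 and its pseudogene Rpl17-ps5 in each mouse. The copy adds 127 to 354 in the 3HB mice and in old mice 1 and 3, and less than 2 in the young mice and old mouse 2.

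With both loci added, a step chosen after these values had been seen, the old mice were at 829, 911 and 1016 and the 3HB mice at 697, 810.3 and 894. These groups overlapped, and the log2 difference was -0.20 (SE 0.13, two-sided exact permutation test, p = 0.2) in place of -0.44 for Rpl17 alone. With Gm46209 added as well it was also -0.20, and with the copy weighted by its length (555 against 775 bases) it was -0.26, both with overlap. Against young mice the sum in 3HB mice differed by -0.065 (SE 0.17, two-sided exact permutation test, p = 0.7), so that no gene of the 5 then separated 3HB from young. With the sum in place of Rpl17, the median over the 5 genes for 3HB against old was -0.29, with 4 of 5 genes free of overlap. Whether reads of Rpl17 had been assigned to the copies was not tested.

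Other loci annotated from large subunit proteins were listed for 3HB against old, and they were picked out after their values had been seen. Rpl15-ps3, the L21 copy Gm10240 and the L12 copy Gm10275 are processed pseudogenes in GENCODE, and none is a copy of the 5 genes. Rpl15-ps3 was at 96.0, 101.1 and 124.1 in old and at 57.1, 82.6 and 75.1 in 3HB mice, a log2 difference of -0.58 (SE 0.19). Gm10240 was at 305.8, 254.1 and 357 in old and at 194.1, 243 and 187 in 3HB mice, a difference of -0.55 (SE 0.18). Gm10275 was at 606, 638 and 820.3 in old and at 503, 599.9 and 545 in 3HB mice, a difference of -0.32 (SE 0.15). All 3 were lower without overlap, as were 51.3% of the 113 genes listed for this same difference.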

How the data were processed

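Kidney RNA of 3 mice a group was sequenced as paired-end reads by a commercial provider. The submitters' processing notes name CASAVA, HISAT2, StringTie and GRCm38, and how genes were counted and called is not given in the sources used here. The deposited tables give normalized values (TPM or FPKM, not stated) for called genes only, so no fit across all genes, no adjusted p-value and no count test could be made. Genes shared by both tables had the same values in each.

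Values were compared as differences between group means of log2(value + 1), with exact permutation tests (two-sided, 20 ways to divide 6 mice). The estimate of the difference and the check for overlap were tested on simulated data with known differences. Each p-value is the share of these divisions with a difference at least as large as the observed one. The test takes the mice as independent, and whether those of a group came from separate litters or cages is not given. The members, the gene lists and the alternatives were chosen with earlier results of these data known. Named genes are the 5 members, the 5 genes most correlated with them, and listed members of the gene lists and copies. Copies were found with BLAST 2.17.0 (at least 95% identity, 80% coverage). Python 3.11.15, numpy 2.4.6, pandas 2.3.3 and scipy 1.17.1 were used.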

Additional observations from a re-analysis of the deposited data

How the results depend on the processing

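For 3HB against old, the old and 3HB mice were separate in all 5 genes, so another pseudocount, the ratio of means, the median of the mice or the loss of 1 mouse could not turn the direction, and a minimum mean of 10 removed no gene. Leaving out 1 mouse moved the median between -0.45 and -0.35. The scale of the other listed genes, which had themselves been called, could have changed the direction. It moved the median by over 0.1, from -0.42 to -0.53. For old against young it moved the median to -0.49 and the genes lower to 5, and the values were -0.49 for Rplp1, -0.27 for Rpl22l1 and -0.12 for Rpl30, all positive before; the genes behind the scale include genes called for age, and how many of them were higher in old mice was not counted. With the median of the mice, Rplp1 was at -0.049 and Rpl17 at 0.14, and with Rpl17-ps5 added Rpl17 was at 0.14 and 1 gene was lower. Without 1 mouse, the median ran from -0.081 to 0.15, the genes lower from 1 to 3, the genes without overlap from 0 to 1, Rplp1 from -0.081 to 0.15 and Rpl17 from -0.15 to 0.078. For 3HB against young the scale moved the median from -0.27 to -0.92 and gave 5 genes without overlap and -0.52 for Rpl30. Adding Rpl17-ps5 left 0 genes without overlap, and leaving out 1 mouse gave 1 to 4, with a median of -0.52 to -0.20. The share of all listed genes was not computed for any of these settings. Without 1 mouse, Rpl22l1 ran from 0.020 to 0.45, Rpl30 from 0.29 to 0.67 and Rpl39 from -0.44 to -0.035 for old against young, and for 3HB against young they ran from -0.52 to -0.088, from 0.0040 to 0.38 and from -0.85 to -0.45. Pairing mice by replicate number (replicate block) could not change any difference, because the groups are of equal size. Each gene had p = 0.25 in 3HB against old, the smallest that 3 pairs allow in an exact test. That value was fixed in advance by the lack of overlap. The labels give nothing that same-numbered mice share beyond the number itself. Deviations of same-numbered mice correlated between -0.35 and 0.12, and a mouse matched its own number best in 7 of 18 comparisons. These values do not settle whether same-numbered mice shared a batch. Depth is unknown, and 3 mice a group limit all tests.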
